A study of Caenorhabditis elegans with 10 samples.

Results

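Genes for messenger RNA decay, shortening of the poly(A) tail (deadenylation) and P bodies were examined among the RNAs that came down with the dynein light chain DLC-1 in *Caenorhabditis elegans*. The members were 35 gene names, matched by name to the authors' deposited table of enriched RNAs, and 14 of them are among its 2732 genes. The names fall into decapping factors and their activators, the CCR4-NOT complex, PAN2/3 with PARN and poly(A) binding proteins, 5′ to 3′ exonucleases, cofactors of the microRNA-induced silencing complex (miRISC), and nonsense-mediated decay (NMD). In the RefSeq gene table of WBcel235, 33 of the names were found, and *ntl-1* and *ntl-2* were not. *ntl-1* is known as another name of *let-711*, also a member. The table lists *tag-153*, a name that the reference does not hold and that may be an older one of *ntl-2*. The sources used here do not pair these names, so *tag-153* was not counted, and with it 15 members would be listed.

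The series compares 5 immunoprecipitates made with an antibody against FLAG with 5 input extracts, all from synchronized young adult whole worms of the genotype 3xFLAG::DLC-1, grown on NA22 plates. DLC-1 belongs to the LC8 family of light chains, which occur in dynein and in other protein complexes. Every library carries the tag, so pull-down without the tag was not analysed here, and the labels do not say whether the 5 numbered replicates of each group are separate cultures, so the spread behind the p-values may be technical. The inputs were started by oligo-dT priming and the immunoprecipitated RNA was processed without enrichment, so library preparation and immunoprecipitation cannot be told apart in any fold change below. Values per library are not in the table, so library depths and the overlap of single samples are unknown, and in whole worms a fold change does not say which tissue the RNA came from.

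Most cytoplasmic mRNAs are degraded from their ends. Deadenylases, PAN2/3 and then CCR4-NOT, first shorten the poly(A) tail, the cap is removed by DCP2 with its activators, and XRN1 digests the body of the message from the 5′ end. Several of these proteins gather with repressed mRNAs in P bodies, and in the worm germline related granules hold the helicase CGH-1 and the RNA-binding protein CAR-1. NMD removes messages with premature stop codons, and miRISC recruits the same deadenylation machinery to its targets through GW182 proteins.

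The 14 listed members, 42.4% of the 33 found in the reference, were all enriched in the immunoprecipitates, since the authors' deposited table holds only genes that were more than 2-fold higher there with an adjusted p under 0.01. Of all genes that the authors tested, 13.4% are in the table, and of all protein-coding genes of the reference 10.6%. The log2 fold changes of the 14 ran from 1.02 to 5.52 with a median of 2.06 in the authors' deposited table, or 4.17-fold. The median was 1.81 over the 2120 listed protein-coding genes and 2.13 over all 2732 listed genes. A median over listed genes is set partly by the 2-fold threshold. The weakest of the 14 adjusted p-values in the authors' deposited table was 1.12e-05, from a one-sided Wald-type test across all tested genes. All 14 also had an adjusted p under 0.001 and a mean of at least 100 normalized counts. Of the 2732 listed genes 2361 had such a p, which is 11.6% of all tested genes. Such a mean was reached by 1676 of the 2732, or 8.24% of all tested genes. The 21 names that are not listed have no value under these names. Leaving aside *ntl-2*, each may have been unchanged, lower in the immunoprecipitates, enriched less than 2-fold or untested. Each may also have been more than 2-fold higher there with an adjusted p that was not under 0.01. The authors' adjusted p-values imply 762 further genes past the p threshold that the table leaves out, and whether unlisted members are among them is not known.

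**Figure D1:**
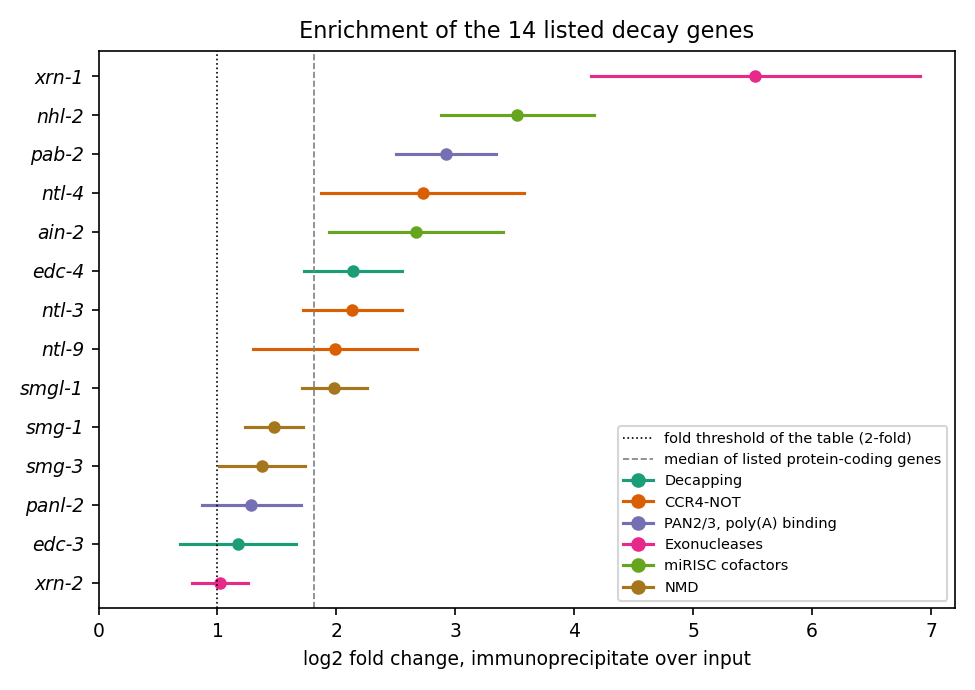
Log2 fold change of immunoprecipitate over input (x axis) of the 14 listed members, coloured by role. Points are the values of the authors' deposited table and bars are normal 95% intervals from its standard errors. The dotted line is the 2-fold threshold of the table and the dashed line the median of listed protein-coding genes, 1.81. *xrn-1* stands highest at 5.52 and *xrn-2* lowest at 1.02.

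Both 5′ to 3′ exonuclease genes are listed, at opposite ends of the range. *xrn-1*, whose product digests decapped mRNA in the cytoplasm, stood at a log2 fold change of 5.52 ± 0.71 (SE) in the authors' deposited table, with a mean of 1494 normalized counts over the libraries. That is 45.9-fold, with a normal 95% interval in log2 units from 4.14 to 6.90. Among the 2120 listed protein-coding genes *xrn-1* ranked 104 by fold. *xrn-2*, which encodes the mainly nuclear exonuclease known for transcription termination and, in the worm, for the turnover of microRNAs, stood at 1.02 ± 0.12 in the authors' deposited table, with a mean of 766 normalized counts. Its fold of 2.03 is just inside the threshold of the table, and its interval from 0.79 to 1.26 lies wholly below that of *xrn-1*. The genes lie on chromosome II of WBcel235, *xrn-1* at 14068907 to 14089877 and *xrn-2* at 14155768 to 14166034, with 65891 bp between them.

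Of the 9 decapping genes, 2 are listed, and both encode enhancers of decapping rather than the decapping enzyme. *edc-4*, written Y44E3A.6 in the file and encoding the relative of the human decapping scaffold EDC4, stood at 2.14 ± 0.21 (log2 fold change ± SE) in the authors' deposited table, or 4.41-fold. *edc-3*, an activator of decapping, stood at 1.17 ± 0.25 in the authors' deposited table, or 2.25-fold, and the intervals of the pair, 1.73 to 2.55 and 0.68 to 1.66, do not overlap. The decapping enzyme gene *dcap-2* and its partner *dcap-1* are not listed. Neither are *patr-1*, for the Pat1 homologue that links deadenylation to decapping, *lsm-1* and *lsm-3*, for subunits of the LSM ring that binds shortened tails, the DDX6-type helicase gene *cgh-1*, or *car-1*. The genes for CGH-1 and CAR-1, which mark germline P body-like granules, are thus without a value here, and nothing about the proteins follows from that.

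CCR4-NOT is the main cytoplasmic deadenylase complex. Of its member genes found in the reference 3 of 6 are listed, or 4 of 7 if *tag-153* is *ntl-2*. Its subunit gene *ntl-11*, which is not a member, is listed too and is given below with the other turnover genes. In the authors' deposited table *ntl-4*, for the relative of the RING-type ubiquitin ligase NOT4, stood at 2.73 ± 0.44 (log2 fold change ± SE). *ntl-3*, for the NOT3-type subunit, stood at 2.13 ± 0.21 and *ntl-9*, for the CAF40-type subunit, at 1.99 ± 0.35 in the authors' deposited table. Their intervals overlap throughout, from 1.87 to 3.58 for *ntl-4*, 1.72 to 2.55 for *ntl-3* and 1.30 to 2.68 for *ntl-9*, so no order among them can be read. In the authors' deposited table the mean was 1320 normalized counts for *ntl-4*, 754 for *ntl-3* and 515 for *ntl-9*, the lowest of the 14. The genes for the catalytic subunits, *ccf-1* and *ccr-4*, and for the NOT1 scaffold, *let-711*, are not listed. The authors' deposited table gives *tag-153* a log2 fold change of 1.11 ± 0.091 (SE), or 2.15-fold, and a mean of 1195 normalized counts. *ntl-3* and *ntl-9* lie on chromosome III, at 11831012 to 11846465 and 4944513 to 4947317, and *ntl-4* on chromosome IV at 7910575 to 7915189 of WBcel235.

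Among the genes for the other deadenylases and for poly(A) binding proteins, 2 of 5 are listed. *pab-2*, 1 of the worm's poly(A) binding protein genes, stood at 2.92 ± 0.21 (log2 fold change ± SE) in the authors' deposited table, or 7.58-fold, with a mean of 1136 normalized counts. Only *xrn-1* and *nhl-2* stood higher among the members, and its relative *pab-1* is not listed. Related sequences can share reads, and the treatment of such reads is not given in the sources used here, so the split between *pab-1* and *pab-2* is uncertain. *panl-2*, for the catalytic PAN2 subunit, stood at 1.28 ± 0.21 in the authors' deposited table, or 2.44-fold, while *panl-3*, for its PAN3 partner, and *parn-1*, for a PARN-type nuclease that trims piRNAs in the worm, are not listed.

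Of the 3 miRISC cofactor genes, 2 are listed, both with folds above the median of the members. *nhl-2*, for a TRIM-NHL protein that acts with CGH-1 in microRNA repression, stood at 3.52 ± 0.33 (log2 fold change ± SE) in the authors' deposited table, or 11.5-fold. By mean level it was the highest of the 14, with 1988 normalized counts according to the authors' deposited table. *ain-2*, 1 of a pair of GW182 family genes, stood at 2.67 ± 0.37 in the authors' deposited table, or 6.35-fold, with a mean of 1379 normalized counts. The other gene of the pair, *ain-1*, is not listed. The intervals of *nhl-2*, 2.88 to 4.16, and *ain-2*, 1.94 to 3.40, overlap.

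In the NMD group 3 of 8 genes are listed, all with log2 fold changes under 2. *smgl-1*, a gene needed for NMD whose human relative is NBAS, stood at 1.98 ± 0.14 (log2 fold change ± SE) in the authors' deposited table. *smg-1*, for the kinase that phosphorylates SMG-2, stood at 1.48 ± 0.12 and *smg-3*, the UPF2 gene, at 1.38 ± 0.19 in the authors' deposited table. The 3 standard errors are among the 4 smallest of the 14 members. The interval of *smgl-1*, 1.71 to 2.26, touches those of *smg-1*, 1.23 to 1.72, and *smg-3*, 1.01 to 1.74, at its lower end. Not listed are *smg-2*, for the UPF1 helicase at the centre of the pathway, *smg-4*, the UPF3 gene, and *smg-5*, *smg-6* and *smg-7*, whose products act after SMG-2 is phosphorylated.

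Ordered by fold, each of the 13 neighbouring pairs of the 14 members has overlapping 95% intervals. Sorting makes overlap of neighbours likely, and 48 of all 91 pairs do not overlap. The closest to a gap is between *xrn-1*, whose interval begins at 4.14, and *nhl-2*, whose interval ends at 4.16. These intervals come from the deposited standard errors of folds measured in the same libraries, and the differences between members were not tested. Of the 14, 9 stood above the median of listed protein-coding genes, and 7 were at or above 4-fold. Of the 2732 listed genes 1465 were at or above 4-fold, which is 7.21% of all tested genes. With 2-fold as the null value, 9 members passed a one-sided test on the deposited values at a Benjamini-Hochberg adjusted p of 0.01. So did 1350 of the 2732 listed genes, or 6.64% of all tested genes. The members that did not pass were *ntl-9*, *smg-3*, *panl-2*, *edc-3* and *xrn-2*.

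The members have high mean counts, but their standard errors were uneven. All 14 had means above the median of listed protein-coding genes, 377 normalized counts in the authors' deposited table, with a range from 515 to 1988. For *xrn-1* the standard error of 0.71 compares with a median of 0.18 in the authors' deposited table among the 607 listed protein-coding genes whose mean was within 2-fold of its own, and it exceeded 99.7% of them. The standard errors of *ntl-4*, *ain-2* and *nhl-2* exceeded 98.7%, 95.7% and 93.2% of such genes in the same way. These 4 are also 4 of the 5 members with the highest folds. *pab-2*, the remaining one, had a standard error of 0.21 in the authors' deposited table, above 63.8% of its comparison genes. The 7 members at or above 4-fold had a median standard error of 0.33 and the 7 under 4-fold 0.19 in the authors' deposited table. Among 684 other listed protein-coding genes in the same range of means the corresponding medians were 0.24 and 0.16 in the authors' deposited table. The comparison genes were matched by mean and not by fold. Without values per library, the source of the large standard errors was not tested.

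**Figure D2:**
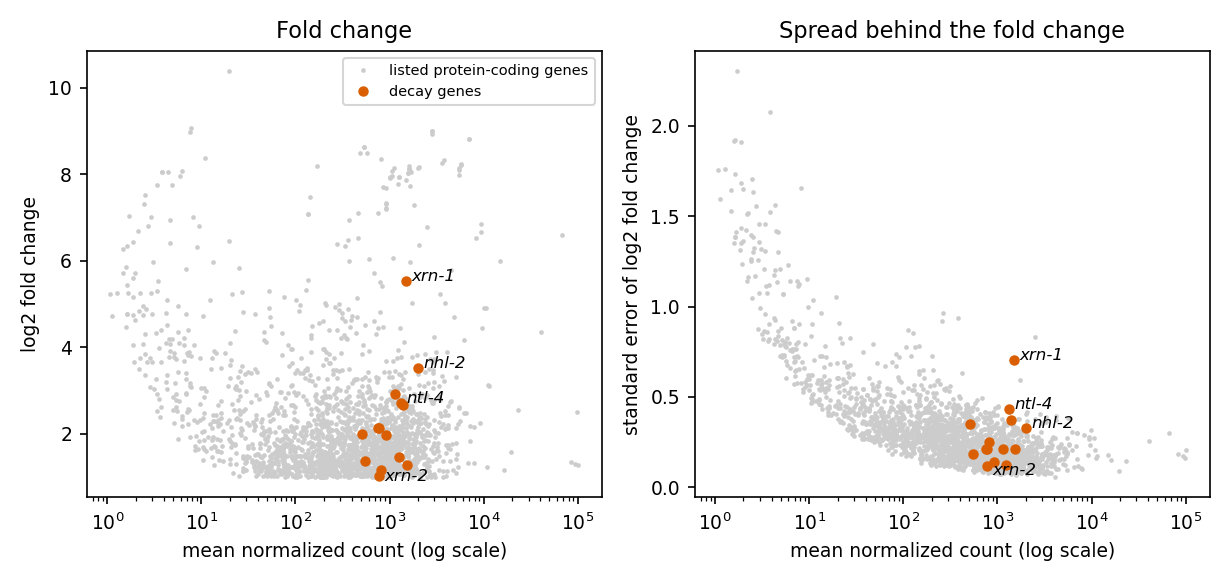
Log2 fold change (left) and its standard error (right) against the mean normalized count on a log axis, for listed protein-coding genes (grey) and the 14 members (orange), from the authors' deposited table. The members lie between means of 515 and 1988, and *xrn-1*, with a standard error of 0.71, stands above the grey cloud at its mean.

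Listed members were long genes. The 14 listed members span 2805 to 20971 bp with introns, with a median of 7290 bp, and the 19 unlisted ones 579 to 14357 bp with a median of 2513 bp. The shortest listed member spans 2805 bp, so by construction none of the 11 members below that span is listed. Of protein-coding genes below it 3.00% are listed. Of the 22 members at or above it 63.6% are listed, against 25.1% of protein-coding genes of that span. This cut was set by a listed member and drops only unlisted ones, which raises the members' share. With protein-coding genes divided into 5 span classes of equal size, 11 of 16 members of the longest class, from 4251 bp, are listed, where 34.5% of protein-coding genes are. In the class from 2458 to 4250 bp, 3 of 8 members are listed against 10.5% of protein-coding genes. None of the 9 members in the 3 shorter classes is listed, where 3.02%, 1.7% and 3.33% of protein-coding genes are, from the shortest class upward. The part of span in the members' listing was not tested. Over the 14 members Spearman's rho of span and log2 fold change was 0.077, and over the 2120 listed protein-coding genes -0.020. Both are descriptions across listed genes measured in the same libraries, and a rank correlation can miss a fall followed by a rise. From the shortest class to the longest, the median log2 fold change of listed protein-coding genes was 6.54, 2.60, 1.56, 1.56 and 1.82. The first of these medians is over 121 genes. Many histone genes are listed with high folds, such as *his-48* at 6.54, and their part in that median was not tested.

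Not every long member is listed. *smg-2* (14357 bp), *smg-6* (12757 bp), *let-711* (12177 bp), *ccr-4* (10311 bp) and *dcap-2* (8502 bp) are all longer than the median listed member and are absent. *smg-1* and *smg-6* differ by little in span, 12637 against 12757 bp, and the former is listed while the latter is not. The shortest listed member is *ntl-9*, at 2805 bp, and *pab-2* and *edc-3*, at 3562 and 3038 bp, are the next shortest. The spans of 5 listed members overlap another gene of the reference, up to 9 of them for *xrn-1*, but no overlapping gene is itself in the table.

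**Figure D3:**
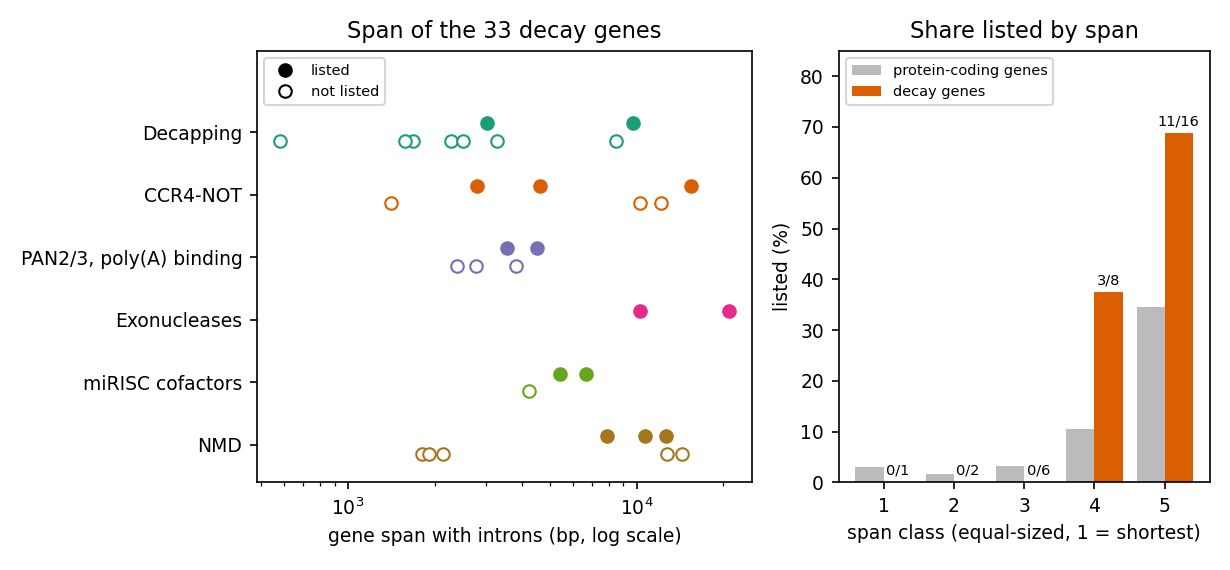
Left, gene span with introns in bp on a log axis for the 33 members found in the reference, by role, with listed members filled and unlisted members open. Right, percent listed in each of 5 equal-sized span classes for all protein-coding genes (grey) and the members (orange, with counts above the bars): 11 of 16 members of the longest class are listed, and none of 9 in the 3 shortest classes.

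Other genes of mRNA turnover, which are not among the 35 names, are in the table as well. Of 59 such genes found in the reference 21 are listed, or 35.6%, beside the 13.4% of all tested genes. Their median log2 fold change was 2.19 in the authors' deposited table, with a range from 1.04 to 4.199, and 12 passed the test against 2-fold. That test was passed by 6.64% of all tested genes. By span, 13 of 23 are listed in the longest class, where 34.5% of protein-coding genes are, and 5 of 14 in the next, where 10.5% are. In the 3 shortest classes 3 of 22 are listed, beside 3.02%, 1.7% and 3.33% of protein-coding genes, and the part of span was not tested. *toe-1* is in this list although in the worm it is named as a target of the ERK kinase and is not known as a deadenylase. Without it 20 of 58 genes are listed, or 34.5%, their median in the authors' deposited table is 2.09 (log2 fold change), and 11 passed the test against 2-fold.

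The exon junction gene *eif-4A3*, whose product marks spliced mRNAs for NMD in mammals, had the highest fold of these genes, 4.199 ± 0.25 (log2 fold change ± SE) in the authors' deposited table. Another listed gene, Y65B4A.11, overlaps its span, so its reads may not all be its own. *mag-1* and *rnp-4*, for the partner proteins of the junction complex, are not listed. In the authors' deposited table *smg-9*, for a partner of the SMG-1 kinase, stood at 3.41 ± 0.38, higher than *smg-1* itself. The mean of *smg-9* was only 99.2 normalized counts, beside 1247 for *smg-1*, and their difference was not tested. The termination factor genes *erfa-1* and *erfa-3* stood at 1.62 ± 0.40 and 1.59 ± 0.32 in the authors' deposited table. *nonu-1*, for a nuclease of nonstop and no-go decay, stood at 1.52 ± 0.20 in the authors' deposited table. *smg-8*, *smgl-2*, *pelo-1*, *hbs-1* and *znf-598* are not listed.

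The miRNA Argonaute genes *alg-1* and *alg-2* are listed, and so are 2 other genes for miRISC and P body repressors. *alg-1* and *alg-2* stood at 2.37 ± 0.16 and 1.26 ± 0.14 (log2 fold change ± SE) in the authors' deposited table, and their intervals do not overlap. As with *pab-1* and *pab-2*, related sequences can share reads, so the split between these 2 genes is uncertain. The span of *alg-2* also overlaps 3 other genes of the reference, none of them listed. *tsn-1*, for the Tudor nuclease, stood at 2.72 ± 0.41, and *ifet-1*, for the eIF4E-binding translational repressor of germ granules, at 2.29 ± 0.38 in the authors' deposited table. The authors' deposited table gives *ifet-1* a mean of 5632 normalized counts, the highest of the listed turnover genes. *gyf-1*, *vig-1* and *mxt-1* of the same group are not listed, which leaves 4 of 7. Of 15 exosome and helicase genes found in the reference 4 are listed: in the authors' deposited table *exos-4.2* stood at 3.14 ± 0.16, the uridylated-RNA exonuclease gene *disl-2* at 1.80 ± 0.14, *ttc-37* (Y47A7.1 in the file) at 1.11 ± 0.13 and the catalytic subunit gene *dis-3* at 1.04 ± 0.14. Whether the groups' shares differ was not tested.

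Of 8 genes for enzymes that add tails found in the reference 4 are listed, and *pup-2*, *pup-3*, *usip-1* and *gld-4* are not. The poly(U) polymerase gene *cid-1* stood at 2.40 ± 0.27, *gld-2*, for a poly(A) polymerase of the germline cytoplasm, at 2.38 ± 0.22, and the poly(A) polymerase genes *pap-1* and *pap-3* at 1.98 ± 0.32 and 1.30 ± 0.24 (log2 fold change ± SE) in the authors' deposited table. The span of *gld-2* overlaps 2 other listed genes. The CCR4-NOT subunit gene *ntl-11* stood at 1.52 ± 0.33, and *toe-1* at 2.19 ± 0.12, in the authors' deposited table. The deadenylation gene *parn-2* is not listed. Of 5 stress granule genes found in the reference 2 are listed, and *gtbp-1*, *tiar-1* and *pqn-59* are not. In the authors' deposited table *tiar-2* stood at 3.25 ± 0.52 and the ataxin-2 gene *atx-2* at 2.19 ± 0.17. None of the 5 LSM ring genes found in the reference and none of the 3 genes of cap scavenging and cap quality control, *dcs-1*, *dom-3* and *eol-1*, is listed, nor is *paxt-1*, for the partner of XRN-2. Of the 5 LSM genes all but *lsm-8* lie in the shortest span class, where 3.02% of protein-coding genes are listed.

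**Figure D4:**
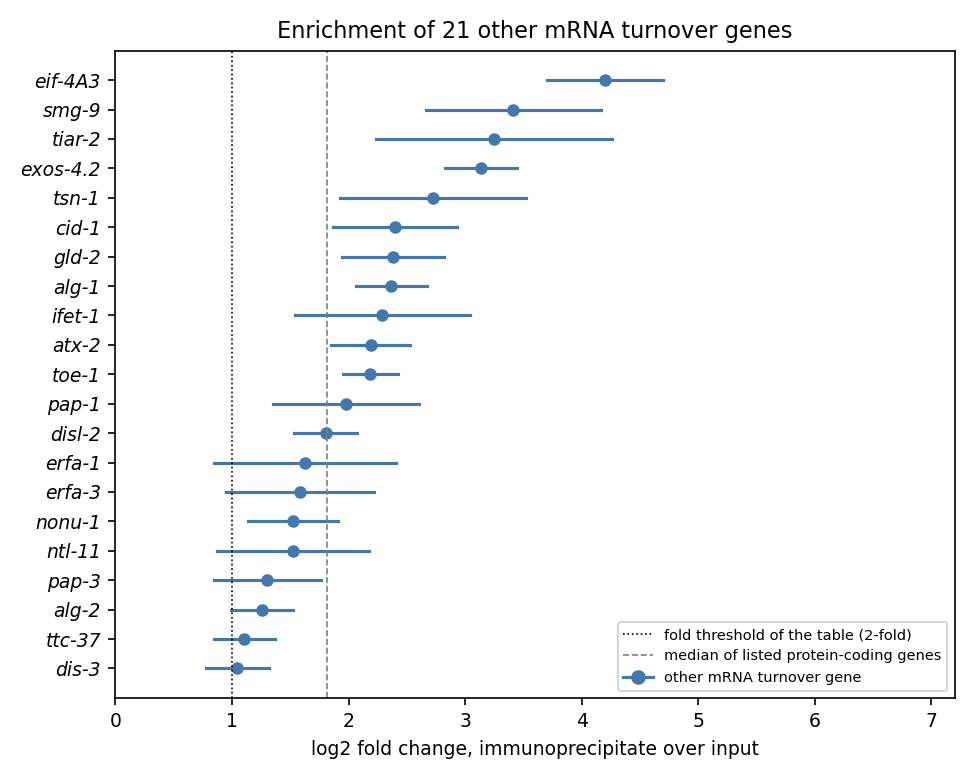
Log2 fold change of immunoprecipitate over input (x axis) of the 21 listed genes among 59 other mRNA turnover genes, *toe-1* included. Points are values of the authors' deposited table, bars are normal 95% intervals from its standard errors, and the lines are as in the plot of the 14 members. *eif-4A3* stands highest at 4.199 and *dis-3* lowest at 1.04.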

How the data were processed

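RNA immunoprecipitation followed by sequencing was done on 5 FLAG immunoprecipitates and 5 inputs. DESeq2 1.12.3, STAR 2.5.2b-0, Bowtie2 2.3.0 and Trim Galore were used, per the submitters' processing notes. Their roles, the counting method and the strand setting are not given in the sources used. The deposited table gives, per the file headers, a mean signal (mean normalized count), a log2 fold change with its standard error, a test score, a p-value and an adjusted p-value per gene. No model was refitted.

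The number of tested genes, 20328, was recovered from the ratio of adjusted to raw p-values. Of the listed names 97.5% matched the WBcel235 gene table. Intervals are the deposited fold ± 1.96 standard errors, computed in Python 3.11.15 with SciPy 1.17.1. The test against 2-fold uses the deposited values, with Benjamini-Hochberg adjustment over all tested genes. All members and all listed genes of the second list are named. The members and lists were chosen with earlier results of these data known.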

Additional observations from a re-analysis of the deposited data

How the results depend on the processing

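The counts of listed genes depend on the fold required more than on the p threshold. An adjusted p of 0.001 kept all 14 members and all 21 other turnover genes, and a mean of at least 100 normalized counts kept 14 and 19. Requiring at least 4-fold left 7 members and 11 other genes, and the test against 2-fold left 9 and 12, with *ntl-9*, *smg-3*, *panl-2*, *edc-3* and *xrn-2* the members lost. The median log2 fold change of the members, 2.06, became 2.67 over those past the test against 2-fold and 1.73 as a mean weighted by inverse variance. Without *xrn-1*, *nhl-2*, *ntl-4* and *ain-2*, whose standard errors were above the 90th percentile of genes of similar mean (chosen after seeing the data), 10 members remained with a median of 1.73. Counting *tag-153* as *ntl-2*, also chosen after seeing the data, gave 15 members with a median of 1.99, and leaving out *toe-1* gave 20 other genes. No paired analysis was possible because the table holds no values per library. For the same reason other normalizations, low-count filters and leaving out replicates were not run, and depth per library is unknown.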
